A study of Mus musculus with 18 samples.

Results

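Glycine tRNAs carried 27 of the 192 small RNA positions at which RNA 5-methylcytosine (m5C) was listed for adult mouse testis. They were taken as every row of the small RNA table whose name begins with tRNA-Gly, with no measured value used in the choice, and they fell in 9 tRNA genes of the 128 RNAs in the table. Among the 139 sites and 83 genes of cytosolic tRNAs, 4 glycine genes with 15 sites had the anticodon GCC, 3 genes with 6 sites had CCC and 2 genes with 6 sites had TCC. The series compared wild-type (WT) testes with testes of Nsun7 knockout mice, with 3 small RNA libraries per genotype and mRNA and large RNA libraries beside them, 18 in all. Nsun7 encodes a testis-expressed relative of the RNA m5C methyltransferases, which the series title calls catalytically inactive. The labels give no strain, age in days or allele beyond "Nsun7 Knockout" and adult, and they do not say which libraries came from separate animals, so every p-value below covers the spread between libraries alone, and that spread may be technical. Whole testis was used, so germ cells and somatic cells were read together, and fewer cells of a type cannot be told apart from less RNA per cell. Of 23 germ cell, Leydig cell and Sertoli cell marker genes, 5 had a listed mRNA site (Adam2, Amhr2, D1Pas1, Insl3 and Piwil1). The tables hold m5C sites and not expression, so a marker without a site was not read as absent.

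Glycine tRNAs bring glycine to the ribosome, and the bases of the anticodon decide which glycine codons each one reads. In mammals DNMT2 (Trdmt1) methylates a cytosine in the anticodon loop of tRNA-Asp, tRNA-Val-AAC and tRNA-Gly-GCC, and NSUN2 methylates cytosines where the variable loop meets the T stem of many tRNAs. Methylation of tRNA-Gly-GCC is known to protect the tRNA from cleavage, and 5′ fragments of tRNA-Gly-GCC are abundant in mature sperm. In the naming scheme of these genes, the number after the anticodon marks a mature sequence and the last number marks a gene copy. tRNA-Gly-GCC-2-1, tRNA-Gly-GCC-2-7 and tRNA-Gly-GCC-2-8 therefore share a mature sequence, and a read of the mature tRNA alone does not tell them apart. The sources used here do not say how reads shared by such copies were assigned.

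The m5C level is the share of reads still showing C after ultrafast bisulfite treatment, which turns unmethylated cytosine into uracil. A cytosine that escaped conversion is counted as methylated, and how complete conversion was cannot be read from these files. Coverage is the number of reads at a position. The strand column holds a plus sign for all 192 rows of the table, and positions are given here in the order of the file's coordinates, as an offset in nucleotides from the first listed site of the gene (build GRCm39, named in the submitters' processing notes). Offsets were not matched to standard tRNA position numbers.

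All 4 GCC genes had, in coordinate order, a lone site ahead of a run of neighbouring sites. tRNA-Gly-GCC-2-8 was listed on chromosome 13 at positions 23701409, 23701418, 23701419 and 23701420, which are a first site and a run of 3 neighbouring positions at offsets 9, 10 and 11. tRNA-Gly-GCC-2-1, on chromosome 1 at 170872590, 170872599, 170872600 and 170872601, had the same spacing. So did tRNA-Gly-GCC-4-1, on chromosome 8 at 111789229, 111789238, 111789239 and 111789240. tRNA-Gly-GCC-2-7, on chromosome 13 at 21894786, 21894795 and 21894796, had the first site and offsets 9 and 10.

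The CCC and TCC genes had no lone site ahead of their runs. tRNA-Gly-CCC-2-2 was listed on chromosome 3 at 96290272, 96290273 and 96290274, and tRNA-Gly-CCC-4-1 on chromosome 4 at 32230296 and 32230297. tRNA-Gly-CCC-5-1 had a single site, on chromosome 3 at 96218606. tRNA-Gly-TCC-1-5 was listed on chromosome 1 at 170930371, 170930372 and 170930373. tRNA-Gly-TCC-2-1 was listed on chromosome X at 40314803, 40314804 and 40314805. An unlisted position says nothing of its level, because the sources used here do not state the authors' rule for listing sites. RefSeq (GRCm38.p6, used for names alone) names 14 glycine tRNA genes with GCC, 6 with CCC and 7 with TCC, so the listed genes are a part of the family.

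Depth separated the genes. Coverage was 7129 to 12074 reads at the sites of tRNA-Gly-TCC-1-5, 6218 to 10405 at tRNA-Gly-CCC-2-2 and 4445 to 6624 at tRNA-Gly-GCC-2-8. It was 601 to 935 at tRNA-Gly-GCC-2-1 and 494 to 808 at tRNA-Gly-GCC-4-1. The other 4 genes were shallow, with 40 to 94 reads at tRNA-Gly-TCC-2-1, 28 to 51 at tRNA-Gly-CCC-4-1, 25 to 48 at tRNA-Gly-CCC-5-1 and 12 to 32 at tRNA-Gly-GCC-2-7. Exact binomial (Clopper-Pearson) 95% intervals on a single library were at most 2.85 points wide at tRNA-Gly-GCC-2-8 and 8.70 at tRNA-Gly-GCC-4-1. They reached 31.5 points at tRNA-Gly-TCC-2-1 and 51.4 at tRNA-Gly-GCC-2-7, and they hold for counting error alone, because PCR copies of a molecule cannot be counted out. Coverage summed over all small RNA sites was 4674265 to 5096438 per library, of which glycine sites made up 73405 to 91080.

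**Figure D1:**
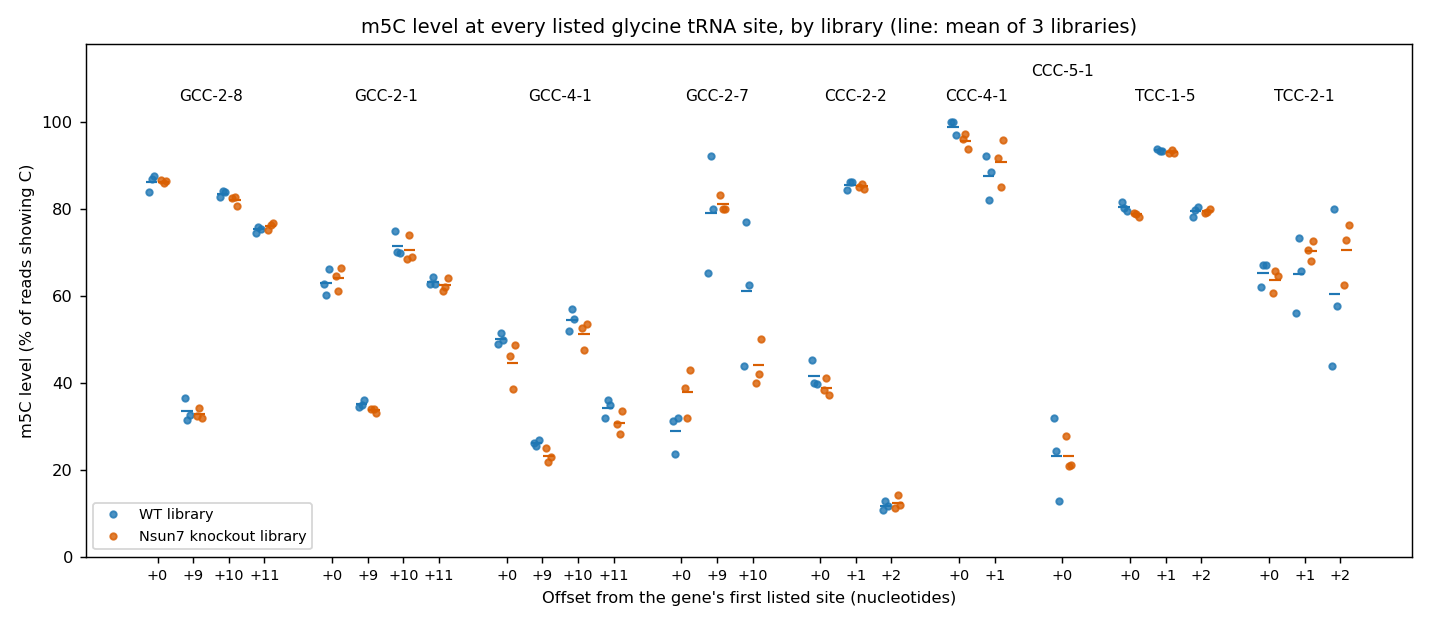
m5C level in percent of reads at each of the 27 listed glycine tRNA sites, grouped by gene and labelled by the offset in nucleotides from the gene's first site; points are libraries (3 WT, 3 Nsun7 knockout) and short lines are the mean of 3. Positions of a gene can stand far apart, from 12.1% to 85.4% at neighbouring positions of tRNA-Gly-CCC-2-2.

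Positions of one glycine tRNA differed strongly in level. Of 31 pairs of positions within a gene, 25 had a difference of the same sign in all 6 libraries, and these 25 passed a two-sided exact sign-flip permutation test over the libraries (p = 0.03125, the smallest 6 libraries can give, adjusted p = 0.0387 by Benjamini-Hochberg over the 31 pairs). The 6 pairs that missed the threshold were the 3 of tRNA-Gly-TCC-2-1, the pair of tRNA-Gly-CCC-4-1, the outer positions of tRNA-Gly-TCC-1-5, and the first and last positions of tRNA-Gly-GCC-2-1. All 6 libraries of both genotypes entered this test, each library serving as its own control. Positions of a gene can be read from the same molecules, so the pairs are not independent of one another.

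In tRNA-Gly-GCC-2-8, the deepest GCC gene, the site at offset 9 stood far below its neighbours. The first site was at 83.9%, 87.0% and 87.7% in the WT libraries and 86.7%, 85.9% and 86.4% in the knockout libraries. At offset 9 the level was 36.5%, 31.5% and 32.5% in the WT libraries and 32.4%, 34.2% and 31.9% in the knockout libraries. Offset 9 lay below the first site in every library, with a mean difference of -53.1 points (SD 3.09, n = 6). Offset 10 had 82.7%, 84.2% and 83.8% in the WT libraries and 82.6%, 82.8% and 80.8% in the knockout libraries. Offset 11 had 74.5%, 76.0% and 75.5% in the WT libraries and 75.3%, 76.4% and 76.8% in the knockout libraries. The order was the same in every library, with the first site highest, offset 10 next, then offset 11, and offset 9 lowest. The step from offset 9 to offset 10 was 49.7 ± 2.25 points (SD, n = 6 libraries, range 46.3 to 52.7), and that from offset 10 to 11 was -7.10 ± 1.68 points (range -8.38 to -4.03).

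tRNA-Gly-GCC-2-1, which shares the mature sequence, had the same low site at offset 9 but a lower first site. The first site was at 62.9%, 60.3% and 66.1% in the WT libraries and 64.6%, 61.2% and 66.5% in the knockout libraries. Offset 9 was at 34.5%, 34.8% and 36.1% in the WT libraries and 34.0%, 34.0% and 33.1% in the knockout libraries. The libraries of both genotypes lay between 33.1% and 36.1% there. Offset 10 was the highest site of the gene in every library, at 74.9%, 70.0% and 69.9% in the WT libraries and 68.4%, 74.0% and 69.1% in the knockout libraries. Offset 11 was at 62.8%, 64.3% and 62.8% in the WT libraries and 61.2%, 62.1% and 64.1% in the knockout libraries. The first site and offset 11 had overlapping libraries, with a difference of -0.721 ± 2.91 points (SD, n = 6) and an adjusted p of 0.635 in the exact sign-flip permutation test, with a range of -3.40 to 4.02 points over libraries. Offset 10 exceeded offset 9 by 36.6 ± 2.86 points.

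tRNA-Gly-GCC-4-1, whose mature sequence has another number, was lower than tRNA-Gly-GCC-2-8 and tRNA-Gly-GCC-2-1 at each of its 4 positions in all 6 libraries. The first site was at 48.9%, 51.5% and 49.9% in the WT libraries and 46.3%, 38.5% and 48.7% in the knockout libraries. Offset 9 was at 26.2%, 25.6% and 26.9% in the WT libraries and 25.0%, 21.8% and 22.8% in the knockout libraries. The lowest value at both sites was that of knockout replicate 2, as it was at the other sites of this gene. Offset 10 had 51.9%, 56.9% and 54.6% in the WT libraries and 52.7%, 47.6% and 53.5% in the knockout libraries. Offset 11 had 31.9%, 36.0% and 34.9% in the WT libraries and 30.6%, 28.2% and 33.5% in the knockout libraries. As in tRNA-Gly-GCC-2-1, offset 10 was highest and offset 9 lowest in all 6 libraries. Offset 11 minus offset 10 was -20.4 points (SD 0.977, n = 6), a larger step than the -7.10 and -8.17 points in tRNA-Gly-GCC-2-8 and tRNA-Gly-GCC-2-1. The ranges of that step over the 6 libraries did not overlap with those of the other genes, at -22.1 to -19.4 points against -8.38 to -4.03 and -12.1 to -4.98, and the difference between the steps was not tested.

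tRNA-Gly-GCC-2-7 went against this order, at only 12 to 32 reads. The first site was at 31.2%, 23.5% and 31.8% in the WT libraries and 38.9%, 31.8% and 42.9% in the knockout libraries. Offset 9, the lowest site of the other GCC genes, had 65.2%, 92.3% and 80.0% in the WT libraries and 83.3%, 80.0% and 80.0% in the knockout libraries. It exceeded the first site in every library, by 46.8 ± 12.3 points (SD, n = 6, adjusted p = 0.0387 in the exact sign-flip permutation test). Offset 10 had 44.0%, 76.9% and 62.5% in the WT libraries and 40.0%, 42.1% and 50.0% in the knockout libraries. It lay below offset 9 in every library, with a mean difference of -27.6 points (SD 11.4), whereas in the other GCC genes offset 10 lay above offset 9 in every library. All 3 calls of this gene were lost at a coverage minimum of 20 reads, where only the first site and offset 9 could still be compared, in 2 libraries, at a difference of 41.1 points.

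**Figure D2:**
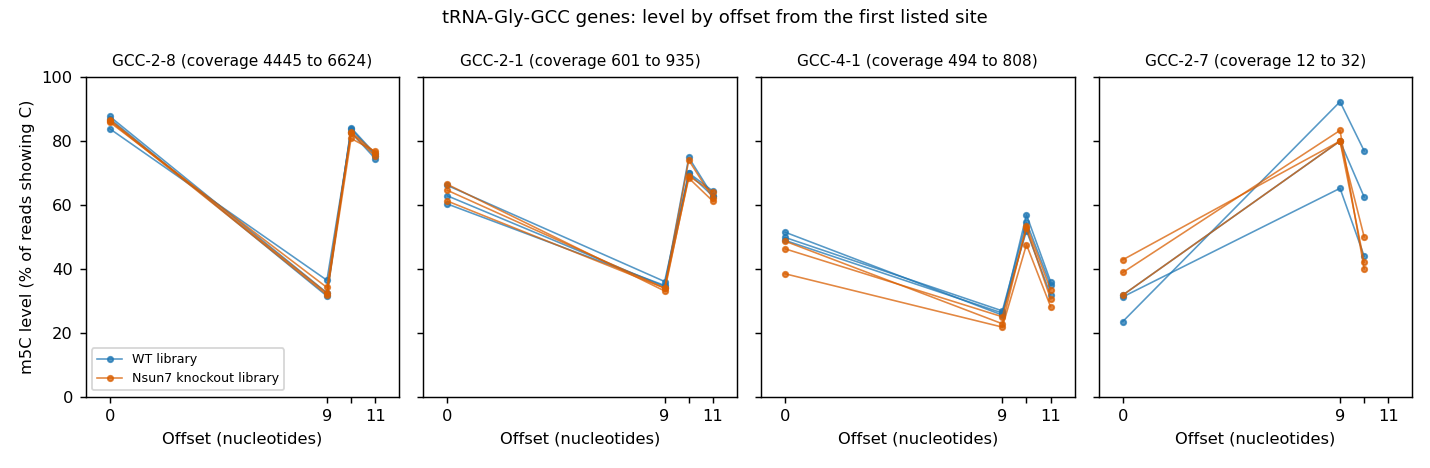
m5C level in percent against the offset in nucleotides from the first listed site for the 4 tRNA-Gly-GCC genes, with a line for each of 3 WT and 3 Nsun7 knockout libraries and the coverage in reads above each panel. In 3 genes the lines run close together and dip at offset 9. In tRNA-Gly-GCC-2-7, at 12 to 32 reads, the lines spread more widely and rise at offset 9.

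At the same offset, GCC genes differed in level as well. This comparison was chosen after the levels had been seen. Of 21 pairs of GCC genes at one offset, 18 had the same sign in all 6 libraries, and these passed the exact sign-flip permutation test (p = 0.03125, adjusted p = 0.0365 over the 21 pairs). At the first site the means over the 6 libraries were 86.3% ± 1.32 in tRNA-Gly-GCC-2-8, 63.6% ± 2.55 in tRNA-Gly-GCC-2-1, 47.3% ± 4.64 in tRNA-Gly-GCC-4-1 and 33.4% ± 6.73 in tRNA-Gly-GCC-2-7 (SD, n = 6). All 6 pairs of genes at that site passed, including the 3 pairs of copies with a shared mature sequence. tRNA-Gly-GCC-2-1 stood -22.7 ± 2.54 points from tRNA-Gly-GCC-2-8, and tRNA-Gly-GCC-2-7 -52.9 ± 6.89 points (SD, n = 6). The part of read assignment among such copies in these differences was not tested.

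At offset 9 the deeper copies had overlapping levels. tRNA-Gly-GCC-2-1 had 34.4% ± 0.993 and tRNA-Gly-GCC-2-8 33.2% ± 1.86 there, a difference of 1.24 ± 2.11 points (SD, n = 6) with a range over libraries of -2.00 to 3.55 and an adjusted p of 0.263 in the exact sign-flip permutation test. At offsets 10 and 11 they stood apart again, by -11.8 ± 2.84 and -12.9 ± 1.13 points. The other pairs that missed the threshold were tRNA-Gly-GCC-2-7 against tRNA-Gly-GCC-2-1 and tRNA-Gly-GCC-4-1 at offset 10, with adjusted p of 0.0691 and 0.938 in the exact sign-flip permutation test.

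The CCC genes held both ends of the range. In tRNA-Gly-CCC-2-2 the middle of 3 neighbouring positions was the most methylated. The first position was at 45.2%, 40.0% and 39.8% in the WT libraries and 38.5%, 41.1% and 37.1% in the knockout libraries. The middle one was at 84.3%, 86.1% and 86.3% in the WT libraries and 85.2%, 85.9% and 84.6% in the knockout libraries. The last one was at 10.7%, 12.7% and 11.6% in the WT libraries and 11.3%, 14.1% and 11.9% in the knockout libraries, the lowest level of any listed glycine site. The 3 sets of 6 libraries were far from overlapping, and the step from the middle to the last position, -73.3 points (SD 1.01, n = 6), was the largest difference between 2 positions of any listed glycine gene.

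tRNA-Gly-CCC-4-1 had the highest mean level of the glycine sites at its first position, 97.3% ± 2.40, and 89.3% ± 5.09 at its second (SD, n = 6). Its first position was at 100.0%, 100.0% and 97.0% in the WT libraries and 96.1%, 97.2% and 93.8% in the knockout libraries. The next was at 92.3%, 82.1% and 88.6% in the WT libraries and 91.8%, 85.0% and 95.9% in the knockout libraries. The second was lower in 5 of 6 libraries, with a mean difference of -8.04 points (SD 6.82) and an adjusted p of 0.0745 in the exact sign-flip permutation test. The lone site of tRNA-Gly-CCC-5-1 was at 32.0%, 24.4% and 12.9% in the WT libraries and 27.8%, 20.8% and 21.2% in the knockout libraries. Those 6 libraries, at 25 to 48 reads, ranged widely and overlapped between genotypes.

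tRNA-Gly-TCC-1-5, with the highest coverage of the glycine genes, had its peak in the middle of the run. The first position was at 81.6%, 80.2% and 79.6% in the WT libraries and 79.1%, 79.0% and 78.2% in the knockout libraries. The middle one was at 93.8%, 93.3% and 93.4% in the WT libraries and 93.0%, 93.5% and 93.0% in the knockout libraries. The last one was at 78.2%, 79.9% and 80.4% in the WT libraries and 79.1%, 79.4% and 80.0% in the knockout libraries. The middle position led in all 6 libraries, by 13.7 ± 0.957 points over the first, and the step from it to the last was -13.9 ± 1.00 (SD, n = 6). The outer positions differed by -0.139 ± 1.79 points (SD, n = 6), with 3 libraries on either side and a range of -3.46 to 1.80.

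tRNA-Gly-TCC-2-1 showed no such peak, at coverage of 40 to 94 reads. Its first position was at 62.0%, 67.1% and 67.1% in the WT libraries and 60.7%, 65.9% and 64.6% in the knockout libraries. The middle was at 56.1%, 73.4% and 65.8% in the WT libraries and 70.5%, 68.1% and 72.6% in the knockout libraries. The last was at 44.0%, 80.0% and 57.7% in the WT libraries and 62.5%, 72.9% and 76.4% in the knockout libraries. WT replicate 1 was the lowest library at the middle and last positions. The middle position exceeded the first by 3.19 ± 6.00 points (SD, n = 6), with a range of -5.87 to 9.78 over the libraries, against 12.2 to 14.8 for the same step in tRNA-Gly-TCC-1-5. The 3 pairs of positions had adjusted p of 0.251, 0.872 and 0.588 in the exact sign-flip permutation test.

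By anticodon, TCC sites were the most uniform and GCC and CCC sites spread widely. Site means over 6 libraries ran from 24.7% to 86.3% for GCC with a median of 52.9%. They ran from 12.1% to 97.3% for CCC with a median of 62.8%, and from 64.6% to 93.3% for TCC with a median of 73.6%. Averaged over sites, GCC reached 56.4% ± 2.03 in WT and 54.7% ± 1.31 in the knockout (SD of 3 libraries). CCC averaged 58.1% ± 2.41 and 57.7% ± 0.609, and TCC 74.1% ± 4.85 and 76.0% ± 1.69.

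The GCC mean over sites was below the mean over CCC and TCC sites together in all 6 libraries, and most of that gap lay with TCC. GCC was below TCC in all 6 libraries but above CCC in 2 of them, WT replicate 2 with 58.1% against 57.6% and WT replicate 3 with 57.0% against 56.0%. The difference of GCC from CCC and TCC together was -10.9, -10.2 and -8.02 points in the WT libraries and -11.5, -13.5 and -11.4 in the knockout libraries. The mean was -10.9 ± 1.81 points (SD, n = 6), and it is given without a test because sites of a gene are not replicates of an anticodon. The size of the gap rested on how sites were weighted. With reads pooled over sites it was -0.780 points, with medians over sites -20.5, and with each gene counted once -6.96. Without the first GCC sites it was -11.7 points, and over sites covered by 100 or more reads in each library -9.42.

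Ordered by mean level, most of the 27 sites overlapped with the next one. Of 26 neighbours in that order, 21 had overlapping ranges over the 6 libraries. Some of these overlaps ran through sites of low coverage with wide ranges, such as 44.0% to 80.0% at the last site of tRNA-Gly-TCC-2-1. Overlap among the deeper sites alone was not counted. The 5 gaps were below the middle site of tRNA-Gly-CCC-2-2, below the last site of tRNA-Gly-TCC-1-5, below offset 11 of tRNA-Gly-GCC-2-1, below the first site of tRNA-Gly-CCC-2-2 and below offset 11 of tRNA-Gly-GCC-4-1. The median over glycine sites was below that of the aspartate, glutamate and valine families, the ones set beside it, at 64.6% against 79.9% over 14 aspartate sites, 90.4% over 14 glutamate sites, 67.7% over 12 valine sites and 79.5% over all 139 cytosolic tRNA sites. Of the glycine sites, 9 of 27 had a mean below 50%, as did 25 of the 139 cytosolic tRNA sites, a count that includes the glycine sites. These medians are descriptions, since families differ in which positions are listed.

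Loss of Nsun7 went with no called change at any glycine site. The question put by the series was whether NSUN7 acts as an RNA m5C methyltransferase. In a logistic model of C counts with quasi-binomial errors, 0 of the 27 glycine sites passed at an adjusted p under 0.05, where 0% of the 184 small RNA sites tested did, and none of the 27 had an unadjusted p under 0.05 (7 of the 184 did). limma on the levels also called 0, with 1 glycine site at an unadjusted p under 0.05. In the logistic model the lowest adjusted p among glycine sites was 0.799. The mean level over the 27 sites was 59.0%, 62.6% and 60.6% in the WT libraries and 59.9%, 59.4% and 61.1% in the knockout libraries. The groups overlapped, and the difference of knockout minus WT was -0.582 points, with single pairs of libraries from -3.21 to 2.11. Without WT replicate 2 it was 0.363, and with reads pooled over sites -2.02. By site, 16 means were lower and 11 higher in the knockout, where 67 were lower and 72 higher over the 139 cytosolic tRNA sites. The median difference was -0.660 points against 0.0317 over all cytosolic tRNA sites. Sites of a gene can be read from the same molecules, so these counts are not of independent sites.

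In 4 of the 27 glycine sites, or 14.8%, the 3 WT and 3 knockout libraries did not overlap, where 11.5% of the 192 small RNA sites did not. Both shares count either direction, and that of glycine is near that of the table. All 4 were lower in the knockout, and the direction at the other sites of the table was not set beside this. The 4 were the first site of tRNA-Gly-TCC-1-5, offset 9 of tRNA-Gly-GCC-2-1, and the first site and offset 9 of tRNA-Gly-GCC-4-1. Sites of the same gene are not independent of one another. The differences of the first pair were -1.72 and -1.42 points, and the quasi-binomial model gave both an adjusted p of 0.799.

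tRNA-Gly-GCC-4-1 had the largest differences among the genes of more than 100 reads. Its first site averaged 50.1% ± 1.30 in WT and 44.5% ± 5.34 in the knockout (SD of 3 libraries). Knockout minus WT was -5.60 points, where the quasi-binomial model gave an adjusted p of 0.867 and limma a 95% interval of -13.2 to 2.00. Offset 9 averaged 26.2% ± 0.658 in WT and 23.2% ± 1.65 in the knockout. The quasi-binomial adjusted p was 0.799 for its difference of -2.98 points. Its limma interval, -5.56 to -0.407 points and not adjusted for the number of sites, did not include 0. Offsets 10 and 11 differed by -3.23 and -3.50 points, and their libraries overlapped. Knockout replicate 2 was the lowest library at each of the 4 sites. Without it the differences were -2.60 points at the first site, -2.27 at offset 9, -1.39 at offset 10 and -2.21 at offset 11.

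tRNA-Gly-GCC-2-8, with the highest coverage among the GCC genes, had overlapping genotypes at all 4 sites. Its first site averaged 86.2% ± 2.05 in WT and 86.3% ± 0.374 in the knockout (SD of 3 libraries). It differed by 0.122 points, and the limma 95% interval was -2.86 to 3.10. Offset 9 differed by -0.660 points (interval -4.71 to 3.39), offset 10 by -1.52 (-3.53 to 0.487) and offset 11 by 0.836 (-0.853 to 2.53). The middle site of tRNA-Gly-TCC-1-5 differed by -0.326 points, with an interval of -1.33 to 0.677. Intervals were wide at the genes of low coverage, and at the last site of tRNA-Gly-TCC-2-1 the limma interval was -16.9 to 36.9 points.

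**Figure D3:**
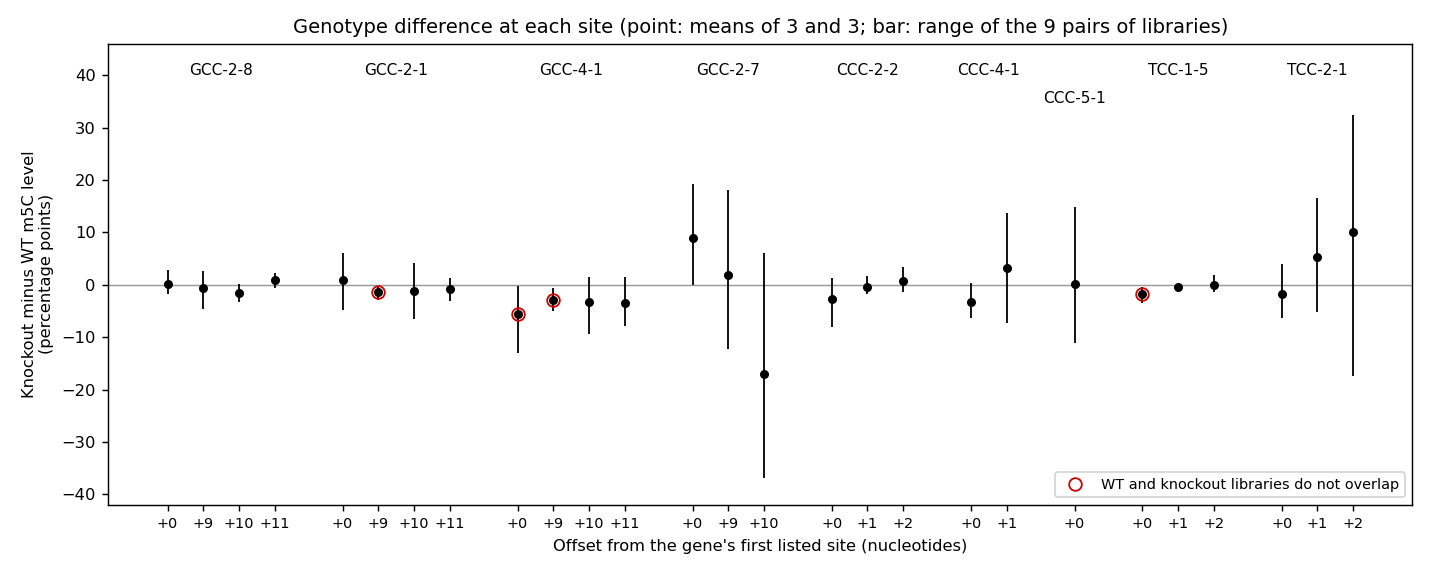
Difference in m5C level, Nsun7 knockout minus WT in percentage points, at each of the 27 glycine tRNA sites; the point is the difference of the means of 3 libraries and the bar runs from the lowest to the highest of the 9 knockout and WT pairs. At 4 sites, circled, the bar lies wholly below 0, and the widest bars belong to genes with few reads.

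When reads were pooled within each genotype, which sets aside the spread between libraries, Fisher's exact test called 24 of the 192 small RNA sites and 4 of the 27 glycine sites. These 4 were the first sites of tRNA-Gly-CCC-2-2, tRNA-Gly-TCC-1-5 and tRNA-Gly-GCC-4-1, and offset 10 of tRNA-Gly-GCC-2-8. Their dispersions in the quasi-binomial model were 24.0, 4.03, 4.38 and 3.51, where 1 would be counting error alone. At the first sites of tRNA-Gly-TCC-1-5 and tRNA-Gly-GCC-4-1 the genotypes did not overlap, with ranges over pairs of -3.46 to -0.501 and -13.0 to -0.240 points. At offset 10 of tRNA-Gly-GCC-2-8 and the first site of tRNA-Gly-CCC-2-2 they overlapped, and at the latter the difference was -2.76 points with a range over pairs of -8.07 to 1.32.

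Read coverage of glycine tRNAs showed no called difference between genotypes either. Coverage in such libraries counts reads that passed conversion and alignment at a site, and it is not a measure of tRNA abundance alone. In edgeR's quasi-likelihood test on 1 site per RNA, 0 of the 9 glycine genes passed at an adjusted p under 0.05, where 0% of the 128 RNAs did. At an unadjusted p under 0.05 there were 0 glycine genes and 5 of the 128 RNAs, and DESeq2 called 0 as well, with 2 RNAs unadjusted. With the replicate number as a block, edgeR's quasi-likelihood test called 0 and had 9 RNAs at an unadjusted p under 0.05, of which 1 was a glycine gene, tRNA-Gly-CCC-4-1 (adjusted p = 0.548). Of the 9 genes, 6 had a higher and 3 a lower estimate in the knockout, and the split over all RNAs was not counted. The glycine split was 8 and 1 without knockout replicate 1, and 5 and 4 without knockout replicate 2. The median log2 fold change was 0.15 over the glycine genes against -0.06 over all RNAs.

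The largest estimate belonged to tRNA-Gly-CCC-4-1, which had 39, 28 and 35 reads in the WT libraries and 49, 40 and 49 in the knockout libraries. Its log2 fold change was 0.49, with an adjusted p of 0.744 in edgeR's quasi-likelihood test. tRNA-Gly-GCC-4-1 had 652, 637 and 678 reads in the WT libraries and 808, 751 and 647 in the knockout libraries, a log2 fold change of 0.21 with an adjusted p of 0.744. tRNA-Gly-GCC-2-8 had 5424, 6139 and 5392 reads in the WT libraries and 6624, 5801 and 5671 in the knockout libraries, a log2 fold change of 0.15. CPM are counts scaled to library sizes that were adjusted by edgeR's TMM normalization (trimmed mean of M-values). On that scale every knockout library lay above every WT library in 3 of the 9 genes, tRNA-Gly-CCC-4-1, tRNA-Gly-CCC-2-2 and tRNA-Gly-GCC-2-8. The genotypes did not overlap in 14.1% of the 128 RNAs (8 higher and 10 lower in the knockout). In unscaled reads, tRNA-Gly-CCC-2-2 and tRNA-Gly-GCC-2-8 overlapped between genotypes. In tRNA-Gly-CCC-2-2 the values were 2869, 3176 and 3184 CPM in the WT libraries and 3531, 3458 and 3513 CPM in the knockout libraries, and in tRNA-Gly-GCC-2-8 the highest WT library had 2210.1 CPM and the lowest knockout library 2246. The other 6 genes overlapped.

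**Figure D4:**
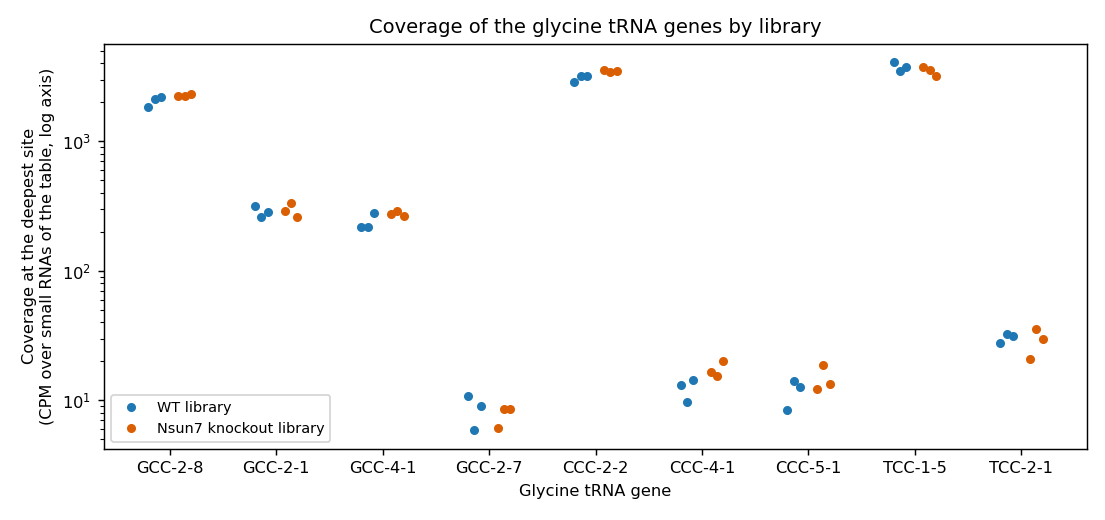
Coverage of the 9 glycine tRNA genes at the deepest site of each gene, as CPM (counts scaled to library size) over the small RNAs of the table on a log axis, with a point for each of 3 WT and 3 Nsun7 knockout libraries. Genes run from 5.86 CPM for tRNA-Gly-GCC-2-7 to 4067 CPM for tRNA-Gly-TCC-1-5.

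Coverage also changed along a gene. The last listed site had fewer reads than the first in all 6 libraries of tRNA-Gly-CCC-2-2, tRNA-Gly-GCC-4-1, tRNA-Gly-GCC-2-7 and tRNA-Gly-TCC-2-1, at ratios of 0.804 ± 0.00970, 0.803 ± 0.0390, 0.789 ± 0.0505 and 0.776 ± 0.0653 (SD, n = 6). tRNA-Gly-GCC-2-8 went the other way, with more reads at the last site in all 6 libraries and a ratio of 1.10 ± 0.0406. Positions of a gene were therefore not all covered by the same reads, and the part of this in the differences between their levels was not tested.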

How the data were processed

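m5C was read by ultrafast bisulfite sequencing in 6 small RNA libraries, 3 WT and 3 Nsun7 knockout, grouped by their titles. The authors deposited a read coverage and a C count per site and library, and a methylation level given as a fraction with 2 decimals, per the file headers. All 1152 deposited fractions lay within 0.005 of C count over coverage. The submitters' processing notes name cutadapt, Trimmomatic, HISAT2, Bowtie2, SAMtools and GRCm39. The sources used here do not give how sites were chosen, how reads shared by tRNA copies were placed or how complete conversion was. A placement rule or incomplete conversion can move a level.

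Levels were computed as C count over coverage. Each site with coverage of at least 10 in at least 2 libraries per genotype was tested by a quasi-binomial logistic model with its own dispersion, adjusted by Benjamini-Hochberg over all small RNA sites at a threshold of 0.05. limma 3.58.1 on the levels gave 95% intervals. Positions were compared by a two-sided exact sign-flip permutation test over libraries. Coverage at 1 site per RNA was tested with edgeR 4.0.16 by quasi-likelihood after TMM normalization, and with DESeq2 1.42.0 as an alternative, in R 4.3.3. The models were tested on simulated data with large changes, which gives no measure of their power for small differences. Every glycine tRNA site is named. The members and lists were chosen with earlier results of these data known. Of 21 gene symbols in a list of RNA m5C and tRNA genes, where Gars and Gars1 name the same gene, 0 had a listed mRNA site. The share over all genes is not given here, so the 0 is not read as a result about these genes. Same-numbered WT and knockout libraries correlated in coverage deviations at 0.256, 0.152 and 0.124 across RNAs, and differently numbered ones at -0.218 to 0.0649. These values are weak, and centring on 3 libraries per genotype ties them to one another. A pairing by number would come from the data and not from the labels. The coverage values given are from the fit without the replicate block, with the blocked counts beside them. For m5C levels the same-numbered correlations were 0.0677, 0.102 and 0.0434 and the others -0.105 to 0.0316, and the numbers were not taken as pairs. Large RNA libraries were not analysed here.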

Additional observations from a re-analysis of the deposited data

How the results depend on the processing

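Sites called different between genotypes numbered 0 under every alternative run for glycine tRNAs and for all small RNAs except Fisher's exact test on pooled reads, which called 24 sites and 4 glycine sites. With a replicate block on the shared numbers the model called 0 sites. The mean of same-numbered differences in glycine level, -0.582 points, equals the unblocked difference by arithmetic, so it is not a check. The glycine mean difference was -2.02 points with reads pooled over sites and -0.0174 without tRNA-Gly-GCC-4-1, and leaving out 1 library at a time gave -1.45 to 0.363. GCC minus the other anticodons was -20.5 points with medians over sites, -0.780 with reads pooled over sites and -6.96 as a mean over genes, an alternative chosen after seeing the data. The cause was not tested. At a coverage minimum of 20 reads, 22 of 29 position pairs passed, and the 3 calls lost were those of tRNA-Gly-GCC-2-7. With 3 or 5 libraries the exact sign-flip permutation test cannot go below p = 0.25 or 0.0625, so no pair could pass. When 1 library was left out, 25 to 26 pairs had 1 direction. The 25 pairs with the same sign in all 6 libraries had to keep it, so these counts are not a check. Coverage calls were 0 in every alternative run. In edgeR's quasi-likelihood test with the replicate block, 9 RNAs, 1 of them a glycine gene, had an unadjusted p under 0.05. Without the block there were 5 RNAs, 0 of them glycine. With every site as its own row there were 13 sites, 3 of them glycine. Leaving out WT replicate 2, knockout replicate 1 or knockout replicate 2 gave 7, 8 and 3 RNAs, 1 of them glycine each time. Leaving out any other library gave 0 glycine genes. Of the recomputed site differences, 267 moved by less than the spread between libraries and 1 moved by more. That 1 was the middle site of tRNA-Gly-TCC-1-5, at 0 points with the deposited rounded levels against -0.326. Many of the 267 could not move. Every site had at least 12 reads, so a coverage minimum of 1 changed none, and one of 20 could change tRNA-Gly-GCC-2-7 alone. Depth limits the 4 genes under 100 reads, where single-library intervals reached 51.4 points.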
